A study of Mus musculus with 8 samples.

Results

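The transcripts Vmn2r55, Fam83g, Grk4, Tonsl, Ranbp3 and Synj2bp were examined in RNA recovered with DCP1A from mouse ovary, 6 of the 23107 genes in the count table. They were chosen from these same data, because each had a higher normalized read count (CPM, counts scaled to a common library size with TMM factors) in all 4 RIP libraries than in all 4 input libraries, so their difference between RIP and input is given as a description and not as a test. The tissue was ovarian cortex of mice at postnatal day 8, and the stated aim was to identify RNAs that DCP1A protein binds in primary oocytes. The 4 RIP libraries held RNA immunoprecipitated with a DCP1A antibody, and the 4 input libraries held total RNA of the same tissue. No genotype, strain, sex or treatment was given for either group, and no control-antibody libraries were analysed here. The labels do not say whether replicates were separate animals or pools, so the tests reflect variation among these libraries, which could be technical only.

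DCP1A activates the decapping enzyme and marks cytoplasmic processing bodies, where mRNAs are held out of translation or degraded from the 5′ end. In RNA immunoprecipitation the antibody recovers RNA bound directly to the protein together with RNA in the same particle, and enrichment is read as a share of the recovered RNA relative to input. The chosen transcripts were not picked for a shared pathway, and whether their proteins share one was not tested. Vmn2r55 encodes a vomeronasal type 2 receptor, one of a large family of pheromone receptors of the vomeronasal organ, and Grk4 a kinase that phosphorylates activated G protein-coupled receptors. FAM83G anchors casein kinase 1, TONSL works with MMS22L at broken or stalled replication forks and reads newly deposited histones, RANBP3 is a cofactor of the nuclear exporter XPO1 that also exports SMAD2 and SMAD3, and SYNJ2BP is a PDZ protein anchored in the mitochondrial outer membrane.

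Libraries held 16325384 to 21269892 counts in RIP and 13098154 to 25757620 in input. The row of ribosomal RNA, Rn45s, was the largest in every library and took 11.5% to 19.45% of counts in RIP and 4.57% to 12.5% in input. Markers of ovarian cell types were detected in both groups. No reference tissue was compared, so they do not show that the tissue was cortex. All 10 oocyte markers listed were tested, with a summed level of 1251 to 1632 CPM in RIP and 1168 to 1841 CPM in input, and all 8 granulosa markers summed to 1577 to 2467 CPM in RIP and 1427 to 2711 CPM in input. All 7 stroma markers summed to 4380 to 8066 CPM in RIP and 4236 to 6690 CPM in input. Surface epithelium markers summed to 111.5 to 239.5 CPM in RIP and 104 to 143 CPM in input, endothelium markers to 59.9 to 96.9 CPM in RIP and 45.2 to 96.8 CPM in input, and the 3 immune markers in the table to 1.997 to 4.73 CPM in RIP and 0.588 to 2.62 CPM in input. The groups overlapped for each of these sums, which single markers did not all follow. In the stroma list most of the sum came from the 3 collagens, while Nr2f2 was at 87.2 ± 6.5 CPM in RIP and 140.5 ± 46.0 CPM in input and Dcn at 80.5 ± 12.3 CPM in RIP and 142 ± 60 CPM in input (SD, n = 4 each). Krt8 of the epithelium was at 64.55 ± 12.89 CPM in RIP and 40.51 ± 10.01 CPM in input. The macrophage gene Cd68 was at 2.57 ± 0.84 CPM in RIP and 0.737 ± 0.423 CPM in input. Its RIP libraries all lay above its inputs, as for 2.77% of all genes tested. None of Nr2f2, Dcn, Krt8 and Cd68, named after their values were seen, passed edgeR's test (adjusted p of 0.622 to 0.740), and their part in the levels of the 6 transcripts was not tested. Other markers of the same lists lay the other way. Upk1b of the epithelium was at 0.333 ± 0.605 CPM in RIP and 2.29 ± 3.02 CPM in input. The remaining epithelium markers had higher means in RIP. The immune gene Ptprc was at 0.485 ± 0.496 CPM in RIP and 0.593 ± 0.596 CPM in input. In the stroma list the collagens and Tcf21 had higher means in RIP, with Col1a1 at 1654 ± 385 CPM in RIP and 1513 ± 445 CPM in input. In bulk tissue, a marker's level does not tell the number of cells of a type from the RNA per cell, and RIP and input RNA came from the same tissue.

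The promoter sequences of 4 of the 6 genes (Vmn2r55, Fam83g, Grk4 and Synj2bp) were found in RefSeq on GRCm38.p6, the assembly release matching mm10, as windows of one length around an annotated transcript start. They are shown for the pair with the fewest and the most CG dinucleotides, because the genes have unlike promoters although they were grouped by a like difference in RIP. The Vmn2r55 window lies at chr7:12684942-12685241 on the minus strand and the Fam83g window at chr11:61684160-61684459 on the plus strand. Both are written 5′ to 3′ on the gene's strand, and capitals mark CG.
Vmn2r55: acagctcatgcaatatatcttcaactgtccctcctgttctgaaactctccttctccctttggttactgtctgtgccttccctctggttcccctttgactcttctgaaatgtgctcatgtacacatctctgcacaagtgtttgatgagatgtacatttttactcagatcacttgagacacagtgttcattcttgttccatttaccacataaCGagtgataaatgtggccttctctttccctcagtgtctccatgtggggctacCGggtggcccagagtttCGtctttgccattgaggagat
Fam83g: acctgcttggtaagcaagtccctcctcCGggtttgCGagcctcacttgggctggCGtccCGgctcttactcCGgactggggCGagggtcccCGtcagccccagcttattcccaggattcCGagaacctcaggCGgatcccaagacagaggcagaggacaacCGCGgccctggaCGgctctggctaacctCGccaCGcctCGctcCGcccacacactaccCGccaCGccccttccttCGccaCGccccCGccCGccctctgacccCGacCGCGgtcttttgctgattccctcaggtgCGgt
The Vmn2r55 window held 3 CG and 45.3% G or C, against a median of 7 CG and 52.7% over 27025 promoter windows of the same length, of which 94.2% held at least 1 CG. The Fam83g window held 26 CG, more than 83.2% of all windows. Grk4 held 22 CG and Synj2bp 11. Both strands were searched for further motifs. The motif GGGCGG, which contains a CG, was found in Fam83g and Grk4 and in 35.9% of all windows. The motif TATAAA was in 0 of these 4 windows and in 14.2% of all windows. The motif CCAAT was likewise in 0 of the 4 and in 37.9% of all windows. A match is a description of the letters only.

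Among 14667 genes tested, 406 (2.77%) had all RIP libraries above all input libraries, and 0 genes (0%) were called higher in RIP after Benjamini-Hochberg adjustment in edgeR's quasi-likelihood fit, with 462 (3.15%) higher before adjustment at p under 0.05. DESeq2 called 13 higher and limma voom with sample weights 0. With the replicate number as a block, edgeR called 13 higher. In the other direction, 370 genes (2.52%) had all RIP libraries below all input libraries, and 628 (4.28%) were lower before adjustment in edgeR. The main edgeR fit called 6 lower, DESeq2 43, limma voom with sample weights 20 and the block 42. All 6 transcripts passed the filter on low counts. They ranked 1, 2, 4, 5, 6 and 7 by p among the 209 named genes of at least median expression with separated groups. Smarcd3 and Rptor held ranks 3 and 8 and met the same choice without being included here. As a ratio, the narrowest separation among the 6 was that of Synj2bp, whose lowest RIP library was 1.27 times its highest input library. Other genes of the 209 came closer to overlap. Mms19, for 1, had 1.54 CPM between its groups, at means of 107 CPM in RIP and 56.0 CPM in input. Clstn1 came nearest among named genes of at least median expression that were not separated. Its lowest RIP library was at 156.454 CPM and its highest input library at 156.477 CPM.

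**Figure D1:**
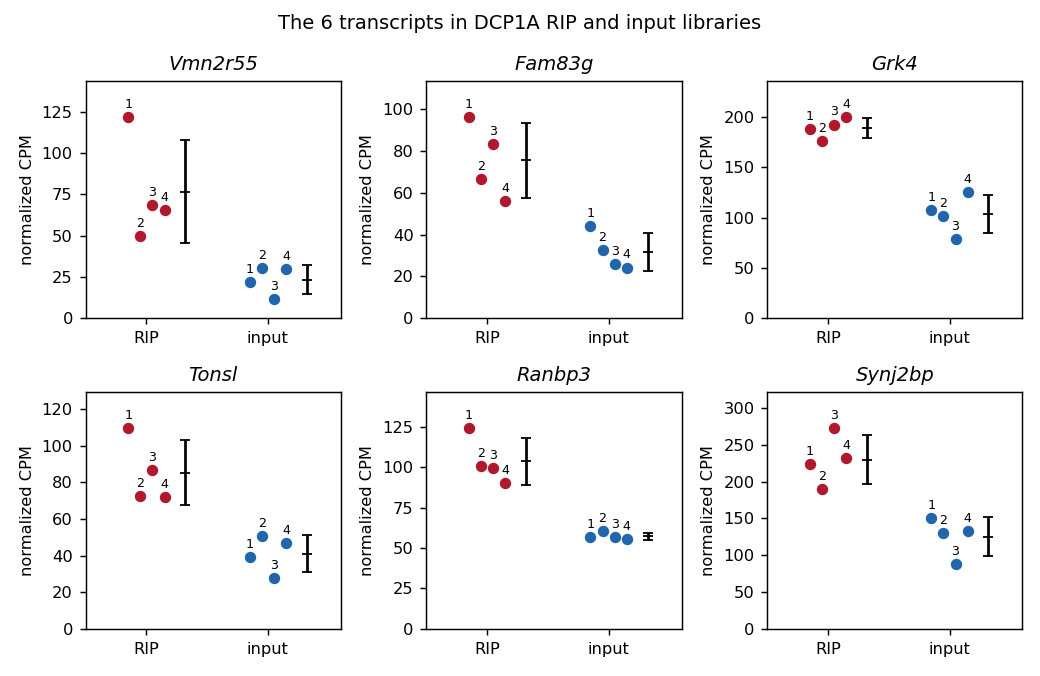
Normalized CPM (vertical axes, linear from 0) of each transcript in the 4 RIP libraries (red, left) and the 4 input libraries (blue, right), labelled by replicate number, with the mean and SD of each group in black. No red point lies at or below a blue point in any panel, which is how the transcripts were chosen. Vmn2r55 spans 50.1 to 122 CPM in RIP, and Ranbp3 spans only 55.3 to 60.5 CPM in input.

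The receptor gene Vmn2r55 (chromosome 7, 12651706 to 12684991, mm10) had 122, 50.1, 68.7 and 65.7 CPM in RIP libraries 1 to 4, against 22.02, 30.4, 11.3 and 30.02 CPM in input libraries 1 to 4. RIP 1 was high and input 3 was low within their groups, and the groups did not overlap. Its means were 76.6 ± 31.2 CPM in RIP and 23.4 ± 8.9 CPM in input (SD, n = 4 each), a log2 fold change of 1.71 ± 0.36 (SE). This was the largest fold change of the 6 and also the one with the widest spread. Its SD on the log2 scale was 0.54 in RIP, wider than in 84.6% of tested genes of at least median expression, and 0.66 in input, wider than in 77.3%. Its smallest count, 262 in input 1, has an exact Poisson 95% interval of 231.2 to 295.7, which covers counting error only.

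The receptor kinase gene Grk4 (chromosome 5, 34660250 to 34755305) had 188, 176, 193 and 199.8 CPM in RIP libraries 1 to 4, against 108, 102, 79.0 and 126 CPM in input libraries 1 to 4. RIP libraries lay close together, input 3 was lowest, and the groups did not overlap. The mean was 189 ± 10 CPM in RIP and 103 ± 19 CPM in input (SD, n = 4 each), with a log2 fold change of 0.87 ± 0.23 (SE). The SD of 0.08 on the log2 scale in RIP was wider than that of only 1.91% of tested genes of at least median expression, where the median SD was 0.33.

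The casein kinase anchor gene Fam83g (chromosome 11, 61684058 to 61709950) had 96.2, 66.4, 83.5 and 56.1 CPM in RIP libraries 1 to 4, against 44.1, 32.6, 25.9 and 24.3 CPM in input libraries 1 to 4. RIP 4 and input 1 came nearest to each other, without overlap. The mean was 75.5 ± 17.8 CPM in RIP and 31.7 ± 9.0 CPM in input (SD, n = 4 each), a log2 fold change of 1.25 ± 0.29 (SE).

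The replication fork gene Tonsl (chromosome 15, 76626237 to 76639929) had 109.8, 72.6, 86.8 and 72.0 CPM in RIP libraries 1 to 4, against 39.1, 50.5, 27.7 and 47.2 CPM in input libraries 1 to 4. As for Vmn2r55, RIP 1 was highest and input 3 lowest, and the groups did not overlap. The mean was 85.3 ± 17.7 CPM in RIP and 41.13 ± 10.14 CPM in input (SD, n = 4 each), with a log2 fold change of 1.05 ± 0.27 (SE).

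The export cofactor gene Ranbp3 (chromosome 17, 56673225 to 56711769) had 124, 100.4, 99.3 and 90.4 CPM in RIP libraries 1 to 4, against 56.8, 60.5, 56.8 and 55.3 CPM in input libraries 1 to 4. The input libraries were nearly level, RIP 1 was highest, and the groups did not overlap. Means were 104 ± 14 CPM in RIP and 57.3 ± 2.2 CPM in input (SD, n = 4 each), with a log2 fold change of 0.85 ± 0.23 (SE). Its SD among inputs, 0.05 on the log2 scale, was wider than that of 0.0954% of tested genes of at least median expression, where the median was 0.46.

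The outer membrane protein gene Synj2bp (chromosome 12, 81492194 to 81532911) had 224, 191, 273 and 232 CPM in RIP libraries 1 to 4, against 150.3, 129.9, 88.2 and 133 CPM in input libraries 1 to 4. RIP 2 was the lowest RIP library, input 1 the highest input library, and the groups did not overlap. Means were 229.9 ± 33.8 CPM in RIP and 125 ± 26 CPM in input (SD, n = 4 each), with a log2 fold change of 0.87 ± 0.24 (SE).

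Adjusted p-values of edgeR over all genes were between 0.214 for Vmn2r55 and 0.490 for Synj2bp. By DESeq2 Vmn2r55, Fam83g and Grk4 were past the threshold (adjusted p = 0.00436, 0.0182 and 0.0461). Since the 6 were chosen for this same difference, the p-values of both tools are descriptions and no test of them. Before scaling for depth, 4 of the 6 were separated (Vmn2r55, Fam83g, Tonsl and Ranbp3). The share of all genes separated in unscaled counts was not computed, and the 6 were chosen for separation, so this count is a description only. For Grk4 the unscaled count was 2546 in RIP 1 and 3445 in input 4, and for Synj2bp it was 3033 in RIP 1 and 3653 in input 4, so those separations rest on the scaling to library size. All 48 values of the 6 rows were whole numbers, although up to 1.85% of a library's values were not.

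**Figure D2:**
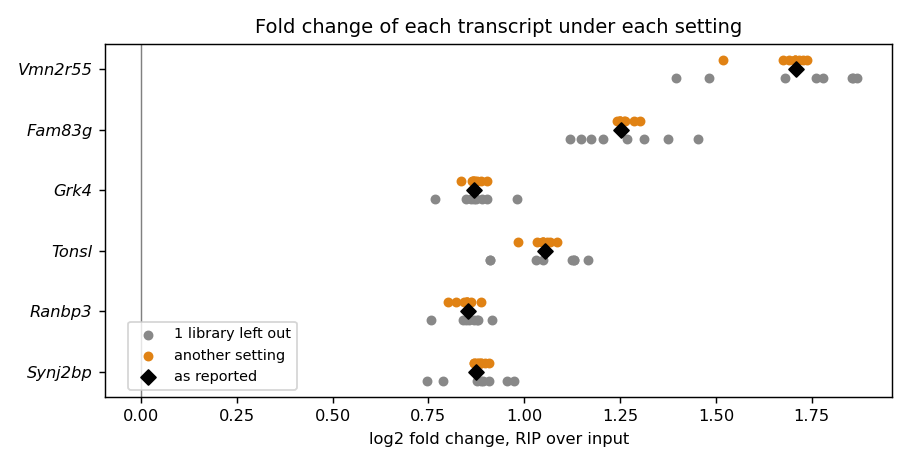
Log2 fold change of RIP over input (horizontal axis) for each transcript as reported (black diamond), under another scaling, filter, block or tool (orange) and with 1 library left out (grey). With 1 library left out the points must lie above 0, since the choice required separated groups, and the figure shows only how far the size moves. Leaving out RIP 1 brings Vmn2r55 down to 1.40, from 1.71 with all libraries.

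Within the groups, pairs of the 6 transcripts varied together to differing degrees. Across the deviations of the 8 libraries from their group means on the log2 CPM scale, Pearson's r was between -0.15 (Ranbp3 and Grk4) and 0.97 (Tonsl and Vmn2r55), with a median of 0.59 over 15 pairs, 13 of them above 0. These correlations are descriptions over 8 libraries, and all genes of a library share its depth and scaling. The correlations of other gene pairs were not computed for comparison. RIP 1 was the highest RIP library for 4 of the 6, and RIP 2 and RIP 4 were the lowest for 3 each. Input 3 was the lowest input library for 4 of the 6, the others being Fam83g and Ranbp3, which were lowest in input 4. Input 3 was also the deepest library, with 25757620 counts, and had the smallest share of Rn45s, 4.57%. The part of depth and ribosomal RNA in these levels was not tested.

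**Figure D3:**
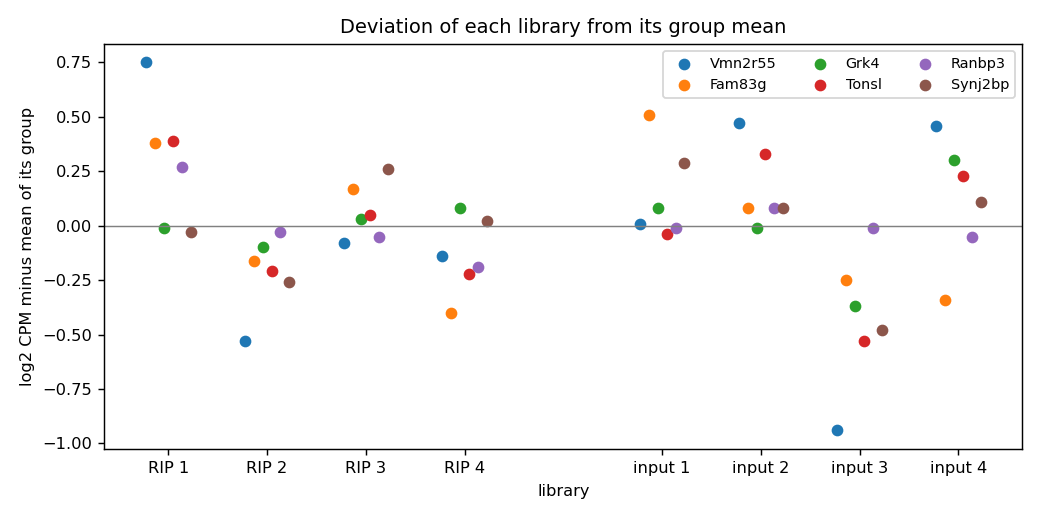
Log2 CPM of each transcript minus the mean of its group (vertical axis) in each RIP and input library (horizontal axis), 1 colour per transcript. Vmn2r55 and Tonsl move together, at 0.75 and 0.39 in RIP 1 and -0.94 and -0.53 in input 3, while Ranbp3 stays between -0.05 and 0.08 in the inputs.

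The genes with the most similar profile were ranked by Pearson's r of log2 CPM over all 8 libraries, among tested genes of at least median expression. Because the profile includes the difference between RIP and input, these genes were selected partly for it. Tonsl was the closest gene to Vmn2r55 (r = 0.991) and Vmn2r55 the closest to Tonsl, followed for both by Gcc1, a golgin (0.978 and 0.981). Next came Cc2d1a for Vmn2r55 (0.969) and the nonsense-mediated decay helicase gene Upf1 for Tonsl (0.977). Grk4 and Synj2bp were likewise closest to each other (r = 0.955), and both had the polycomb gene Cbx2 among their 3 (0.953 and 0.937). The remaining gene was A630089N07Rik for Grk4 (0.950) and the maintenance methylation cofactor gene Uhrf1 for Synj2bp (0.951). Fam83g was closest to Arfgap2 (0.973), Evc (0.964) and Crebzf (0.960), and Ranbp3 to Evc (0.968), Ilk (0.966) and Gpam (0.965). A like profile can come with a smaller difference between the groups. Gcc1 averaged 57.3 ± 5.2 CPM in RIP and 46.1 ± 2.9 CPM in input (SD, n = 4 each), a log2 fold change of 0.31.

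Neighbouring genes were examined next, because the strand setting of the counting was not given and reads of overlapping genes cannot be told apart. Vmn2r55 lies between its family members Vmn2r54 and Vmn2r56, and both had 0 counts in all 8 libraries. A count of 0 allows up to 3 counts, or 0.141 to 0.222 CPM in a RIP library and 0.102 to 0.255 CPM in an input library, by counting error only. Fam83g lies within the span of the sodium-glucose cotransporter family gene Slc5a10, which averaged 1.83 ± 2.02 CPM in RIP and 3.04 ± 4.62 CPM in input (SD, n = 4 each). The start of Grk4 lies 102 bases from the end of the span of Nop14, a gene of ribosomal small subunit assembly. Nop14 averaged 34.06 ± 10.06 CPM in RIP and 53.1 ± 41.5 CPM in input, and Htt on the other side 150.5 ± 2.9 CPM in RIP and 112 ± 34 CPM in input. Tonsl lies 153 bases from Vps28, an endosomal sorting gene with 31.5 ± 11.8 CPM in RIP and 30.4 ± 17.0 CPM in input. Ranbp3 lies 2163 bases from Vmac, with 27.5 ± 14.6 CPM in RIP and 21.0 ± 8.6 CPM in input. Grk4 also overlaps the microRNA gene Mir467g, and Ranbp3 the pseudogene Ccpn-ps, neither of which was matched to a row of counts. Synj2bp is covered by an annotated readthrough gene, Gm20498, that runs on into Cox16, and how reads were divided between them is not known, so the Synj2bp level is uncertain. Cox16 itself, a cytochrome c oxidase assembly gene, averaged 7.82 ± 2.35 CPM in RIP and 12.7 ± 3.3 CPM in input. No tested neighbour reached the edgeR threshold, and the lowest adjusted p was 0.690, for Prpsap2 beside Fam83g (log2 -0.56 ± 0.28).

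**Figure D4:**
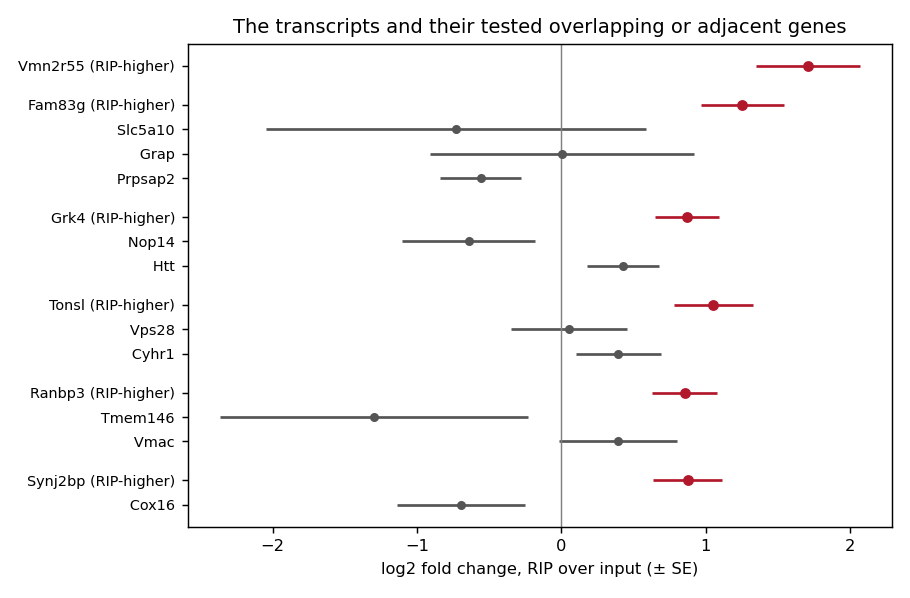
Log2 fold change of RIP over input with its SE (horizontal axis) for each of the 6 transcripts (red) and the tested genes that overlap it or lie next to it (grey). The neighbours lie between -1.30 for Tmem146, the table's name for Catsperd, and 0.42 for Htt, below the transcript they flank in each case. The 6 were chosen for a higher level in RIP and the neighbours were not, so this order was favoured by the choice and is no test.

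Family members and partner genes, which were not used to choose the transcripts, were taken from lists of 7 families and pathways. Of 91 listed genes tested, edgeR called 0 in either direction (0.0409% of all genes tested were called), and before adjustment 4 were higher and 3 lower at p under 0.05, where the share over all genes tested was 3.15% higher and 4.28% lower. DESeq2 and limma voom with sample weights also called 0. All RIP libraries lay above all input libraries for 4 of them (4.40%, against 2.77% of all genes tested) and below for 4 (4.40%, against 2.52%). Their median log2 fold change was -0.04, beside -0.02 for all genes tested.

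Vmn2r55 stood nearly alone in its family in counts. Of 118 other Vmn2r rows, 96 had 0 counts in all 8 libraries, and only Vmn2r9, Vmn2r12 and Vmn2r29 reached 100 counts over all libraries. Vmn2r55 held 7328 counts and the other 118 rows together 938, so that Vmn2r55 made up 90.4% to 93.8% of the family's counts in RIP libraries and 77.4% to 85.1% in input libraries. These are counts, not levels per length, and Vmn2r55 was chosen for its higher level in RIP. Vmn2r29 had 94 counts over the RIP libraries and 216 over the inputs (log2 -0.88 ± 1.17), and Vmn2r12 had 144 over the RIP libraries and 58 over the inputs (1.43 ± 1.499). Of the 200 rows of the type 1 receptors, 190 had 0 counts in all libraries and 2 reached 100 counts. Vmn1r58 averaged 60.5 ± 13.3 CPM in RIP and 42.2 ± 12.8 CPM in input, and Vmn1r65 72.39 ± 10.11 CPM in RIP and 82.7 ± 22.9 CPM in input (SD, n = 4 each). Markers of vomeronasal sensory neurons of any receptor type were mixed. H2-M10.1, a class Ib molecule that accompanies type 2 receptors, had 0 counts in all 8 libraries, and the olfactory marker gene Omp had 25 counts over the RIP libraries and 4 over the inputs. The vomeronasal channel gene Trpc2 averaged 22.7 ± 5.6 CPM in RIP and 14.4 ± 5.4 CPM in input, and the G protein gene Gnao1 21.3 ± 6.2 CPM in RIP and 13.03 ± 3.34 CPM in input. The other way lay the G protein gene Gnai2, at 218.5 ± 25.5 CPM in RIP and 233 ± 69 CPM in input, and Gng8, with 25 counts over the RIP libraries and 43 over the inputs. Gng13 had 74 counts over the RIP libraries and 53 over the inputs. The summed level of all 7 markers was 218.9 to 292 CPM in RIP and 183 to 356 CPM in input, most of it from the widely expressed Gnai2.

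None of the relatives or kinase partners of Fam83g was called. The mitotic spindle gene Fam83d averaged 15.8 ± 3.0 CPM in RIP and 14.9 ± 11.9 CPM in input, and Fam83h, whose human counterpart is mutated in an enamel disorder, 12.5 ± 2.8 CPM in RIP and 11.8 ± 7.0 CPM in input (SD, n = 4 each). The casein kinase gene Csnk1a1, whose product FAM83G binds, averaged 194 ± 37 CPM in RIP and 223 ± 59 CPM in input. The list had 8 of 10 genes tested and a median log2 fold change of 0.04.

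The receptor kinase and arrestin genes had the highest median of the 7 lists, 0.52 on the log2 scale over 7 of 9 genes tested, with 5 above 0 and 0 called. Adrbk1, the table's name for Grk2, averaged 65.6 ± 18.5 CPM in RIP and 42.5 ± 12.0 CPM in input, and Grk6 105 ± 43 CPM in RIP and 65.8 ± 41.9 CPM in input (SD, n = 4 each). Grk5 lay the other way, at 18.3 ± 5.8 CPM in RIP and 24.7 ± 7.8 CPM in input. The arrestin gene Arrb2 was at 46.9 ± 2.7 CPM in RIP and 43.0 ± 6.9 CPM in input. The groups overlapped for each gene of this list that was tested.

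The partners of TONSL had a median log2 fold change of -0.04 over 22 genes tested, 9 of them above 0. Mms22l, which encodes the obligate partner of TONSL, averaged 22.3 ± 2.2 CPM in RIP and 23.7 ± 7.1 CPM in input (log2 -0.09 ± 0.33, SE, n = 4 each). The histone chaperone gene Asf1a averaged 22.7 ± 5.5 CPM in RIP and 36.15 ± 9.98 CPM in input, with all RIP libraries below all inputs (edgeR adjusted p = 0.675), and Asf1b 27.4 ± 3.0 CPM in RIP and 26.7 ± 12.0 CPM in input. Chaf1a, of the chromatin assembly factor, was at 146 ± 11 CPM in RIP and 106 ± 35 CPM in input. The helicase subunit gene Mcm3 and Cdan1, named here after their values were seen, were the pair with all RIP libraries above all inputs (log2 0.67 ± 0.29 and 0.65 ± 0.26).

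In the RAN transport list, RANBP3's partners lay mostly near 0 or below it. The exporter gene Xpo1 averaged 88.6 ± 26.5 CPM in RIP and 126 ± 48 CPM in input, and Ran 181 ± 20 CPM in RIP and 199.6 ± 44.8 CPM in input (SD, n = 4 each). Of the cargo genes, Smad2 was at 102 ± 11 CPM in RIP and 121 ± 26 CPM in input, and Smad3 at 615 ± 111 CPM in RIP and 511 ± 111 CPM in input. The paralog Ranbp3l had only 206 counts over the RIP libraries and 170 over the inputs. Ranbp2, a nuclear pore gene named after its values were seen, had all RIP libraries below all inputs (log2 -0.74 ± 0.28, edgeR adjusted p = 0.622). The list's median log2 fold change was -0.14 over 25 genes, 10 of them above 0, and 0 were called.

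The list of SYNJ2BP partners and outer membrane genes had a median log2 fold change of -0.18 over 25 genes, with 10 above 0 and 0 called. Rrbp1, whose product ties the endoplasmic reticulum to SYNJ2BP, averaged 116 ± 35 CPM in RIP and 148 ± 108 CPM in input, and the mitophagy kinase gene Pink1 118 ± 26 CPM in RIP and 108 ± 17 CPM in input (SD, n = 4 each). Synj2 was at 9.11 ± 2.77 CPM in RIP and 8.75 ± 3.51 CPM in input. The activin receptor genes Acvr2a and Acvr2b had log2 fold changes of -0.35 ± 0.31 and 0.09 ± 0.28 (SE). The mitofusin gene Mfn2 (0.63 ± 0.25) and the antiviral adaptor gene Mavs (0.87 ± 0.35) had all RIP libraries above all inputs, and Tomm7 (-0.73 ± 0.30) and Rhot1 (-0.54 ± 0.29) had all below. These 4 were named after their values were seen, and the lowest adjusted p of the list was 0.622 by edgeR.

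**Figure D5:**
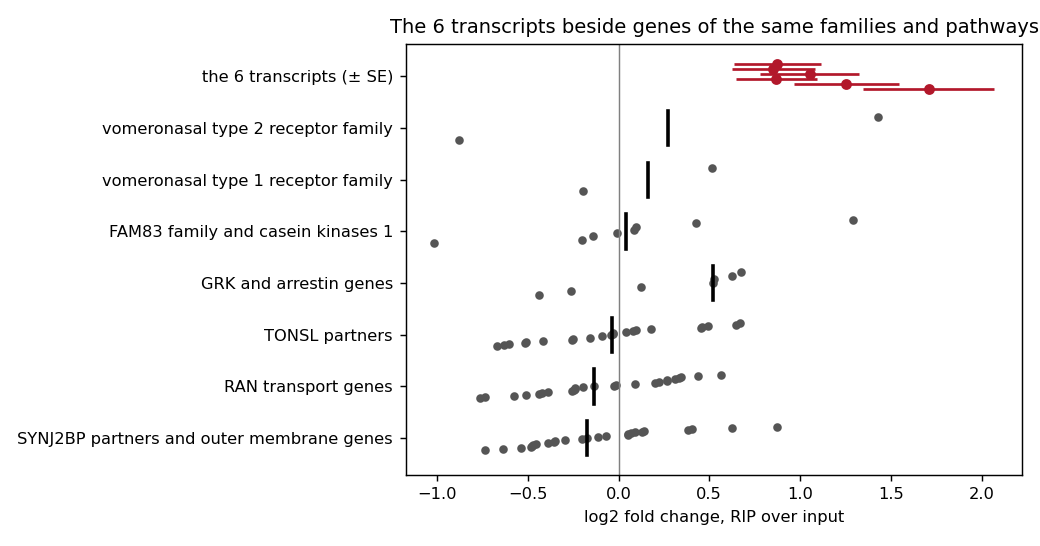
Log2 fold change of RIP over input (horizontal axis) for the 6 transcripts with their SE (red, top row) and for each tested gene of the 7 family and pathway lists (grey points, with the list's median as a black bar). The list medians lie between -0.18 and 0.52, and no listed gene passed edgeR's test.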

How the data were processed

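DCP1A RIP RNA and input RNA of mouse ovary were compared. Per the labels' protocols, a Magna RIP kit was used for recovery and a SMARTer Stranded Total RNA-Seq kit for the libraries. The genome build was mm10, per the submitters' processing notes. Which aligner, counter, annotation and strand setting were used was not given in the sources used here. The authors deposited estimated counts (expected counts) per gene without normalization, which were rounded to whole numbers. The design assumed whole counts and its test was kept.

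edgeR 4.0.16 in R 4.3.3 was used with TMM factors, a robust quasi-likelihood fit after filterByExpr (minimum count 10, minimum total 15), and a Benjamini-Hochberg adjusted p under 0.05 over 14667 genes. The SE was approximated from the log2 fold change and the F statistic (absolute change over the root of F). The common biological coefficient of variation was 0.559. Alternatives were other scalings and filters, the replicate number as a block, each library left out, DESeq2 1.42.0 and limma 3.58.1. In simulated RIP against input data over 14306 genes, the test recovered 10 of 50 genes changed 2-fold and 45 of 50 changed 4-fold, with 9 false calls.

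The 6 transcripts and the lists were chosen with earlier results of these data known. Named genes were the 6, fixed list genes, neighbours on the RefSeq annotation and the 3 most alike genes of each. Replicate numbers were checked for pairing, which was to be assumed only if every number had a correlation over 0.1. Deviations of same-numbered libraries correlated at 0.162, 0.091, 0.178 and 0.118. The numbers were therefore not taken as pairs in the main fit, but whether they are pairs is not settled. Intervals cover counting error only.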

Additional observations from a re-analysis of the deposited data

Results flagged for a closer look

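Among 104 groups of 4 libraries checked over 52 named genes, 5 had a library far from the other libraries of its group by Dixon's test at its 95% level, where chance gives about 1 in 20. None of the 6 chosen transcripts was among them. Grk6 had 169 CPM in RIP 1 against 77.6 to 88.3 CPM in the other RIP libraries. Pink1 had 82.6 CPM in input 4 against 113 to 118 CPM in the other inputs. Slc5a10, which overlaps Fam83g, had 9.92 CPM in input 1 against 0.0341 to 1.44 CPM in the other inputs. Tmem146, beside Ranbp3, had 0.375 CPM in input 3 against 4.15 to 4.33 CPM in the other inputs. Gpam had 101 CPM in input 3 against 110.2 to 111 CPM in the other inputs.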

How the results depend on the processing

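The 6 log2 fold changes moved by less than 1 SD of the libraries within a group under all 17 alternatives each. Their sign is no sign of stability, since the choice required separated groups. With 1 library left out they ranged from 1.40 to 1.87 for Vmn2r55, 1.12 to 1.45 for Fam83g, 0.77 to 0.98 for Grk4, 0.91 to 1.17 for Tonsl, 0.76 to 0.92 for Ranbp3 and 0.75 to 0.97 for Synj2bp. All 6 were separated under the 4 other scalings, which their choice favoured, and the share over all genes was not computed for those scalings. The number of genes called higher, 0 by edgeR, was 13 with the replicate number as a block, 13 by DESeq2, and 0 to 1 with 1 library left out, the 1 being without RIP 1. Vmn2r55 and Fam83g were among the genes past the threshold with the block (adjusted p = 0.00844 and 0.0191) and by DESeq2 (0.00436 and 0.0182), and Grk4 by DESeq2 (0.0461). These values are no test of the 6, which were chosen for this difference. The cause of the differing calls was not tested. Whether same-numbered libraries are pairs is not settled: the 4 same-number correlations were above 0, as were 3 of the 12 between numbers, but 1 of the 4 was under 0.1. RIP libraries correlated best with their own number in 3 of 4 cases, the exception being RIP 4 with input 3 (0.269), and input libraries in 1 of 4, as a hint from the data and not the design. Listed genes called stayed at 0 in every alternative run. Separation was not computed for the filters, the block, DESeq2 or limma voom. On data simulated with this number of libraries and this spread, 10 of 50 genes of at least median expression changed 2-fold were recovered.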
